A study of Mus musculus with 4 samples.

Results

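Trim55, the titin gene Ttn and 8 further genes of striated muscle were followed in differentiating mouse D3 embryonic stem cells in which the phospholipase gene Pnpla6 had been silenced. The 10 genes were Trim55, Ttn, Myl7, Myl2, Myl4, Actc1, Tnnt2, Nkx2-5, Mef2c and Des, out of 32970 genes or transcripts on the array. They were found through the RefSeq accession of each probe, which gave 18 of 41174 probes, 8 of them for Ttn and 2 for Myl4. They were chosen by their ratios of silenced to control cells at 96 h, so those ratios are described here for the 10 genes without a test. Of the 18 probes, 13 were well above background on both arrays of at least 1 group, which left 9 of the 10 genes measured and Mef2c with none.

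Silenced cells had received siRNA against Pnpla6 (siNTE in the labels, after neuropathy target esterase, its product) by lipid transfection. Control cells were of the same line, and the labels do not say what they were transfected with. Both were then grown as embryoid bodies, aggregates in which embryonic stem cells differentiate, in medium without LIF, the cytokine that holds mouse embryonic stem cells undifferentiated. RNA was taken at 96 h and at 24 h. Silenced and control RNA shared each array, 2 arrays per time with the dyes exchanged, which gives 8 channels in all. The RNA came from whole cultures, in which fewer cells of a type and less RNA per cell cannot be told apart.

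Striated muscle contracts through the sarcomere, in which thick filaments of myosin slide along thin filaments of actin, and titin spans from the Z-disc to the M-band as a spring and a ruler. The muscle RING finger proteins, of which Trim55 (MuRF2) is one, are ubiquitin ligases that bind titin near the M-band. In embryoid bodies of mouse embryonic stem cells, sarcomeric genes of the heart are known to switch on as beating cardiomyocytes form.

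Per channel 62.5% to 68.7% of 43379 spots were well above background, and no spot was saturated. Nothing in the labels tells if replicates 1 and 2 were separate cultures, so the p-values below may measure technical spread alone, and having 2 arrays per time limits the precision. The SEs and p-values of silencing ratios also leave out differences between replicates 1 and 2 that both times share. By its brighter probe Pnpla6 itself had a log2 ratio of silenced to control cells of 0.01 at 96 h. At 24 h this ratio was −0.87, with 54.9% of the control level left. Its other probe gave 0.01 at 96 h and −0.57 at 24 h, with 67.5% left. The brighter probe passed at 24 h (limma adjusted p = 3.02e-11), whereas under several of the alternative settings at the end of the report no gene passed at 24 h. The pluripotent cell markers Pou5f1, Nanog, Zfp42 and Sox2 were above background on both arrays of all 4 groups, whereas the skeletal muscle genes Myod1, Myf5, Myf6, Myog and Ckm were so in none. Levels below are log2 intensities after background correction and normalization, where the lowest levels of probes well above background lay between 5.65 and 6.01, and differences between dim levels understate the change.

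The 300 bases around the transcription start, 250 before and 50 after it, were in RefSeq's promoter table (mouse build GRCm38.p6) for 9 of the 10 genes, in 13 windows. The promoters of 3 genes are shown: that of Ttn, which had the largest change over time among these genes after Trim55, and those of Myl7 and Actc1, which held a CArG box, the site bound by serum response factor, and had 96 h ratios of opposite sign. Both strands were searched. Capitals mark a MEF2 site in Ttn, the CArG boxes, and a TATAAA in Actc1.
Ttn, chr2:76982498-76982797, minus strand: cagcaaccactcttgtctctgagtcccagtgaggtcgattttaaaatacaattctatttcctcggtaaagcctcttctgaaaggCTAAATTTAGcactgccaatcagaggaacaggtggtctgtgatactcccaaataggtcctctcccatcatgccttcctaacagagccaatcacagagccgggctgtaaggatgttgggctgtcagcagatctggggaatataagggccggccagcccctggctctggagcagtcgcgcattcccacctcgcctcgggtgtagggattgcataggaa
Myl7, chr11:5898733-5899032, minus strand: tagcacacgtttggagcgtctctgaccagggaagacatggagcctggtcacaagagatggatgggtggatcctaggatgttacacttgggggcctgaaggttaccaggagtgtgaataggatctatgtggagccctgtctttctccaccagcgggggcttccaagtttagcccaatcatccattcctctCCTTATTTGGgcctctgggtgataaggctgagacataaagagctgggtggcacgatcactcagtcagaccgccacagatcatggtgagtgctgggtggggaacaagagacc
Actc1, chr2:114052826-114053125, minus strand: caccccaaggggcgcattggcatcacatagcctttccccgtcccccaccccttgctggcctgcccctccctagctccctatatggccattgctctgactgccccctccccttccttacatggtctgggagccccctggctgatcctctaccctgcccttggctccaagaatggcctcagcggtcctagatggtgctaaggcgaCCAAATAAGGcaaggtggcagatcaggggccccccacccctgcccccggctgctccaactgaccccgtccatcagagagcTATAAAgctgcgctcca

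The MEF2 site of Ttn, a match to the site of the MEF2 muscle transcription factors, lay 166 to 157 bases before the start. It was the only one in the 13 windows, and 3.19% of all 32851 promoters in the table held one. The CArG box lay 61 to 52 bases before the start in Myl7 and 47 to 38 bases before it in Actc1, and 1.63% of all promoters held one. TATAAA was found in 4 of the 13 windows (3 genes), against 13.6% of all promoters. That of Actc1 lay 33 to 38 bases after the annotated start. CANNTG, the E-box of myogenic factors, was in 11 of the windows and in 72.3% of all promoters, and GATAA, the core of GATA sites, in 5 windows and in 25.4%. The capitals of different motifs did not overlap in the 3 windows shown.

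Trim55, the titin-bound ubiquitin ligase, was the gene with the lowest ratio of silenced to control cells at 96 h among all 21751 genes and transcripts tested, and one of those that rose most in control cells. Its level at 96 h was 10.14 and 10.56 in silenced cells on replicates 1 and 2, and 11.60 and 12.06 in control cells. At 24 h it was 8.81 and 8.34 in silenced cells, and 8.94 and 8.11 in control cells. The control channels of 96 h were thus the highest, the silenced channels of 96 h came next without overlap with any other group, and the silenced and control channels of 24 h overlapped.

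On the 96 h arrays the log2 ratio of Trim55 in silenced over control cells was −1.46 and −1.50, which is 2.79-fold lower in silenced cells on average. The 2 arrays differed by 0.04, with the dyes exchanged between them. The raw spots showed the same direction with both dyes. On replicate 1 the silenced RNA gave an intensity of 890 in Cy3 beside 3945 for the control RNA in Cy5, and on replicate 2 the silenced RNA gave 1919 in Cy5 beside 3142 for the control RNA in Cy3.

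At 24 h the ratio of Trim55 was −0.13 and 0.23 on the 2 arrays, which differ in sign, and their mean of 0.05 (SE 0.07) did not pass the test (limma adjusted p = 0.971). This SE is small beside the distance between the 2 arrays, since the fit draws its spread largely from all genes. Over time, Trim55 was 9.86-fold higher at 96 h than at 24 h in control cells (log2 difference 3.30, SE 0.28, n = 2 channels per time, limma adjusted p = 0.000116), the rise with rank 9 of 21751. In silenced cells its level was 3.42-fold higher at 96 h than at 24 h, given here without a test. The control channels of 96 h are also the denominator of the 96 h ratios through which the gene was chosen, so its rise in control cells is not independent of that choice. The array carried 1 probe for Trim55, and no other probe bears on these values.

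**Figure D1:**
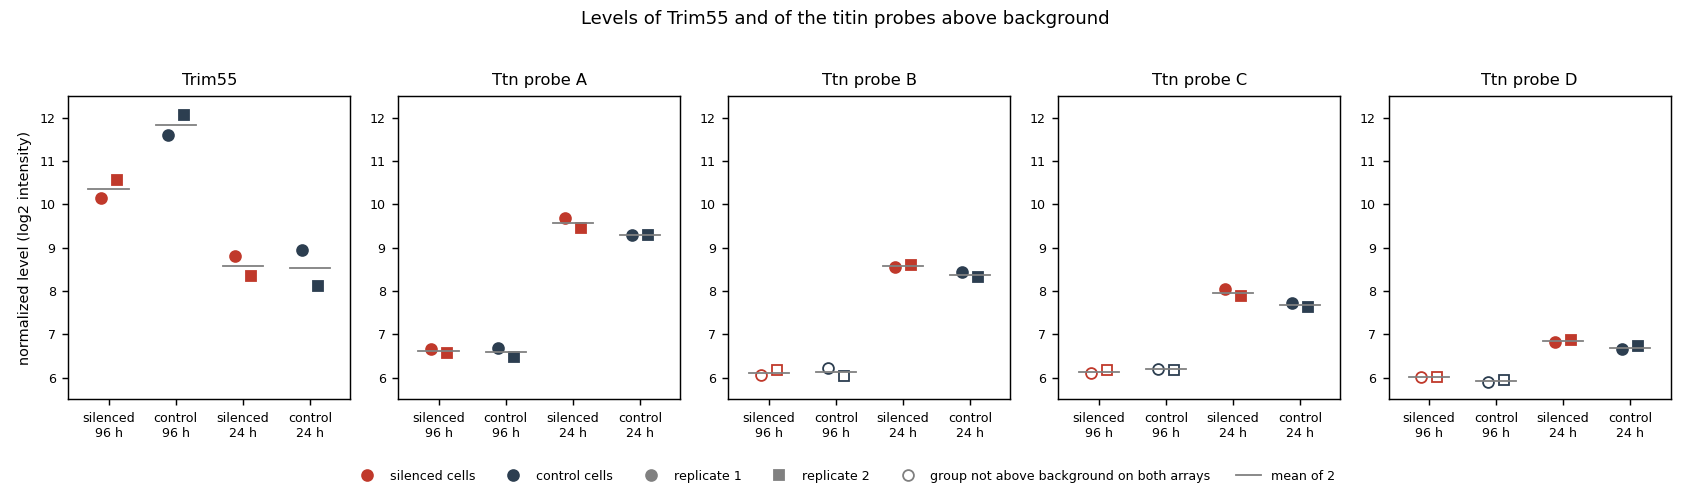
Normalized log2 level of Trim55 and of the 4 titin probes that passed the filter, in silenced and control cells at 96 h and 24 h; points are single channels (circle replicate 1, square replicate 2), lines are means of 2, and open points mark groups not above background on both arrays. Trim55 was higher at 96 h than at 24 h and lower in silenced than in control cells at 96 h, and each titin probe was lower at 96 h than at 24 h. Titin probes B to D passed the filter through the 24 h groups alone.

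Titin, the giant elastic protein of the sarcomere, went the other way over time. Its brightest probe, probe A in the plot of levels, had a level at 96 h of 6.66 and 6.56 in silenced cells, and 6.69 and 6.47 in control cells. At 24 h it had 9.69 and 9.44 in silenced cells, and 9.29 and 9.30 in control cells. All channels of 96 h lay below all channels of 24 h, and at 96 h the silenced and control channels overlapped.

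In control cells Ttn was 6.55-fold lower at 96 h than at 24 h (log2 difference −2.71, SE 0.18, limma adjusted p = 4.30e-05), the fall with rank 11 of 21751. In silenced cells it was 7.77-fold lower at 96 h (no test). The other 3 titin probes above background were also lower at 96 h in control cells. They passed the filter through the 24 h groups alone, so a fall was in part fixed by the filter. It is no independent support for probe A. Probe B was 4.74-fold lower at 96 h, where 1 of its 2 control arrays was above background. Probes C and D were above background on no control array of 96 h and were at least 2.78-fold and at least 1.69-fold lower there. Probe A was above background in all 8 channels, and in the fit of every probe its limma adjusted p was 3.73e-05. The remaining 4 titin probes were not above background in any channel, with levels between 5.84 and 6.09. Their control levels at 96 h differed from those at 24 h by −0.05 to 0.04.

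At 24 h all 4 titin probes above background had positive ratios of silenced to control cells on both arrays. Probe A gave 0.41 and 0.15, probe B 0.12 and 0.28, probe C 0.32 and 0.26, and probe D 0.18 and 0.14. The probes share 1 RNA per channel, so they are not replicates of the silencing. Tested by its brightest probe, Ttn had a log2 ratio of 0.28 (SE 0.07) and missed the threshold (limma adjusted p = 0.0521), the positive ratio with rank 44 of 21751. When every probe was tested on its own, probe A (adjusted p = 0.0375) and probe C (0.0178) passed and probes B (0.205) and D (0.457) did not. Without the filter on dim probes the adjusted p of Ttn was 0.0276, and without the replicate block, with 1 array left out, with an offset of 16, median centring or the authors' ratios it was between 0.286 and 1.00. At 96 h the ratio of probe A was −0.03 and 0.09, on either side of 0.

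The atrial and ventricular myosin light chains followed no common course. Myl7, the atrial regulatory light chain, had a level at 96 h of 9.98 and 9.89 in silenced cells, and 9.72 and 9.58 in control cells. At 24 h it had 9.89 and 9.87 in silenced cells, and 9.999 and 9.83 in control cells. Its control channels of 96 h were thus below all its other channels, and its ratio of silenced to control cells was 0.26 and 0.32 on the 2 arrays of 96 h.

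At 24 h the ratio of Myl7 was −0.10 and 0.04 (limma adjusted p = 0.983). Over time its level in control cells differed by −0.26 (SE 0.10, limma adjusted p = 0.0753), which missed the threshold. Myl2, the ventricular regulatory light chain, had a level at 96 h of 7.06 and 7.06 in silenced cells, and 6.79 and 6.86 in control cells. At 24 h Myl2 had 7.43 and 7.42 in silenced cells, and 7.22 and 7.29 in control cells, so that silenced channels lay above control channels at both times without overlap.

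The ratio of Myl2 was 0.27 and 0.20 on the arrays of 96 h, and 0.21 and 0.13 on those of 24 h, where the mean of 0.17 (SE 0.06) did not pass (limma adjusted p = 0.384). In control cells Myl2 was 1.35-fold lower at 96 h than at 24 h (log2 difference −0.43, SE 0.08, limma adjusted p = 0.00608). Myl4, the atrial essential light chain, differed little between groups. Its level at 96 h was 6.86 and 7.02 in silenced cells and 6.89 and 7.05 in control cells, and at 24 h it was 6.98 and 6.87 in silenced cells and 6.95 and 6.84 in control cells.

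The groups of Myl4 overlapped throughout. Its ratio was −0.03 on both arrays of 96 h and 0.03 on both arrays of 24 h (limma adjusted p = 0.990), and its level in control cells differed by 0.07 between the times (limma adjusted p = 0.604). A second, dimmer Myl4 probe gave ratios of 0.07 and −0.09 at 96 h and of 0.29 and −0.13 at 24 h, which differ in sign at both times.

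In the thin filament, Actc1 encodes cardiac alpha-actin and Tnnt2 the cardiac troponin T that ties troponin to tropomyosin. Actc1 had a level at 96 h of 7.15 and 7.05 in silenced cells, and 7.41 and 7.24 in control cells. At 24 h it had 7.66 and 7.73 in silenced cells, and 7.52 and 7.69 in control cells. The silenced channels of 96 h were the lowest and overlapped with no other group, whereas the groups of 24 h overlapped with each other.

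The ratio of Actc1 was −0.26 and −0.19 on the arrays of 96 h, and 0.14 and 0.03 on those of 24 h (limma adjusted p = 0.877). Its level in control cells differed by −0.28 between the times (SE 0.12, limma adjusted p = 0.105), which missed the threshold. Tnnt2 was above background only at 96 h, on 2 of 2 arrays in silenced cells and 1 of 2 in control cells, and on no array of 24 h. Its level at 96 h was 6.16 and 6.23 in silenced cells and 6.20 and 6.26 in control cells, and its ratio there was −0.04 and −0.03. At 24 h its level was 5.99 and 6.03 in silenced cells and 5.92 and 6.02 in control cells. In control cells Tnnt2 was at least 1.19-fold higher at 96 h than at 24 h (limma adjusted p = 0.0604, not past the threshold). The filter kept Tnnt2 through the silenced cells of 96 h alone. Its test over time, here and under other settings, is thus no support for a rise.

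Nkx2-5, a homeobox factor of the early heart, had a level at 96 h of 6.83 and 6.96 in silenced cells, and 6.77 and 6.70 in control cells. At 24 h it had 6.66 and 6.71 in silenced cells, and 6.65 and 6.72 in control cells. Only the silenced channels of 96 h stood apart, with ratios of 0.06 and 0.26 on the 2 arrays, whereas at 24 h the ratios were 0.01 and −0.01 (limma adjusted p = 1.00). In control cells its level differed by 0.05 between the times (limma adjusted p = 0.786). Mef2c, a MADS-box factor that binds the MEF2 site, was not well above background in any of the 8 channels, with levels between 5.91 and 6.04 in all 8, so that no difference was detectable at this signal.

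Des encodes desmin, the intermediate filament that links Z-discs, and was spotted 10 times on each array. Its level at 96 h was 8.08 and 8.004 in silenced cells and 7.98 and 7.99 in control cells, and at 24 h it was 7.60 and 7.62 in silenced cells and 7.68 and 7.72 in control cells. All channels of 96 h lay above all channels of 24 h. In control cells Des rose 1.22-fold (log2 difference 0.29, SE 0.09, limma adjusted p = 0.0383).

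The log2 ratio of Des was 0.10 and 0.01 at 96 h, where the 10 spots of an array had an SD of 0.08 on replicate 1 and 0.04 on replicate 2. At 24 h it was −0.08 ± 0.05 and −0.10 ± 0.08 (SD over the 10 spots of an array, which share 1 RNA), and the test over arrays did not pass (limma adjusted p = 0.860). On both arrays of 24 h, and on replicate 1 of 96 h, the mean over spots lay further from 0 than the SD between spots, and on replicate 2 of 96 h it lay closer.

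**Figure D2:**
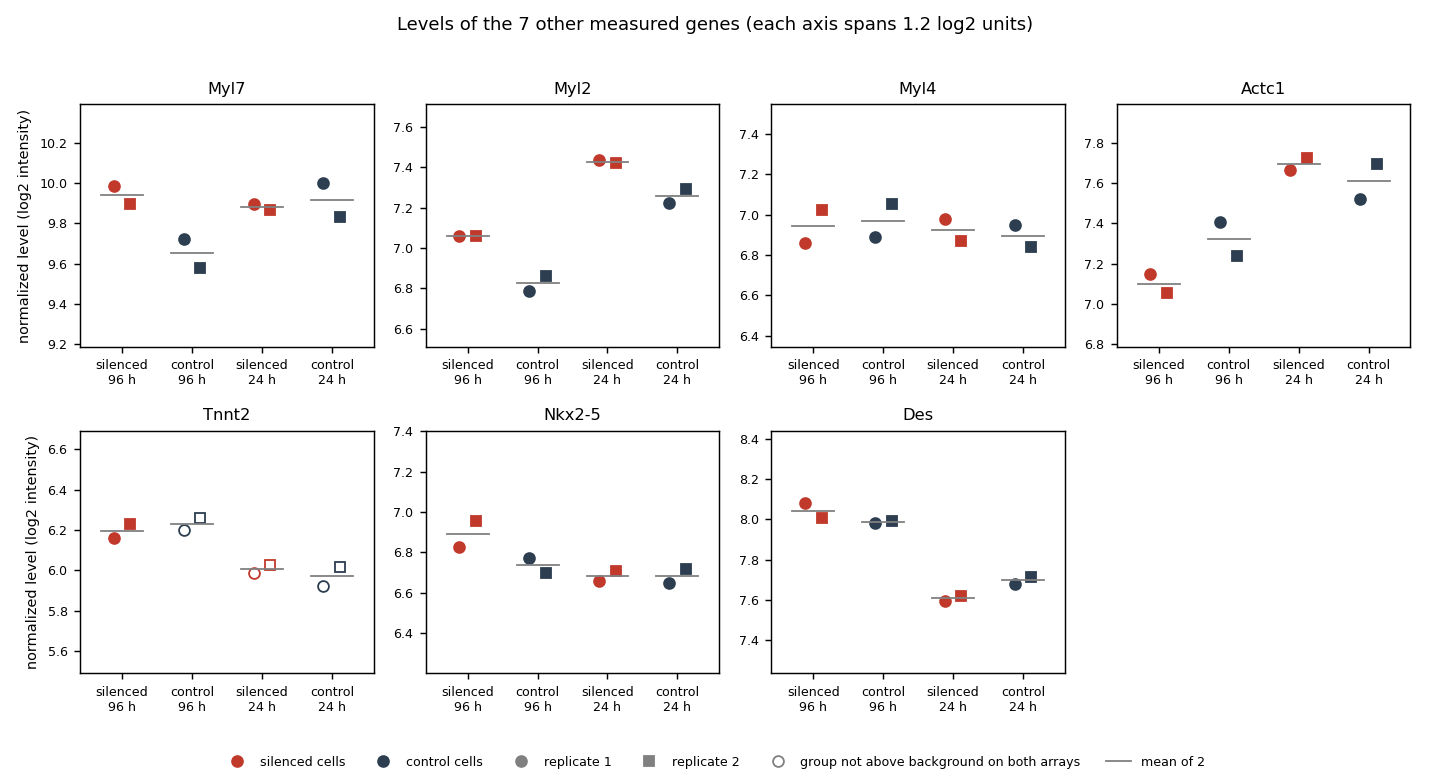
Normalized log2 level of the 7 other measured genes in silenced and control cells at 96 h and 24 h, with symbols as in the plot of Trim55 and titin levels; every axis spans 1.2 log2 units. Myl2 was lower and Des higher at 96 h than at 24 h, and the points of Myl4 overlapped.

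Among the 9 measured genes none passed at 24 h between silenced and control cells, where 0.372% of all genes tested did. The median log2 ratio of the 9 was 0.04 (0.00 over all genes tested), and 6 of the 9 were positive. At 96 h the ratios that led to the choice of these genes ran from −1.48 to 0.29 with a median of 0.03, with Trim55 and Actc1 lowest and Myl7 and Myl2 highest. These values chose the genes, so no test of them is given. Of all genes tested 13.4% passed at 96 h (6.61% higher and 6.8% lower). In control cells over time 4 of the 9 changed, Trim55 and Des higher and Ttn and Myl2 lower, and so did 36.2% of all genes tested (19.4% higher and 16.8% lower). The count was 7 of 9 without a dye term and without 96 h replicate 1, where Myl7, Actc1 and Tnnt2 passed too (limma adjusted p = 0.0321, 0.0105 and 0.0398 without that array), 6 without 24 h replicate 2, and 4 or 5 under the other alternatives. The median of the 9 was 0.05, that of all genes tested 0.00.

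**Figure D3:**
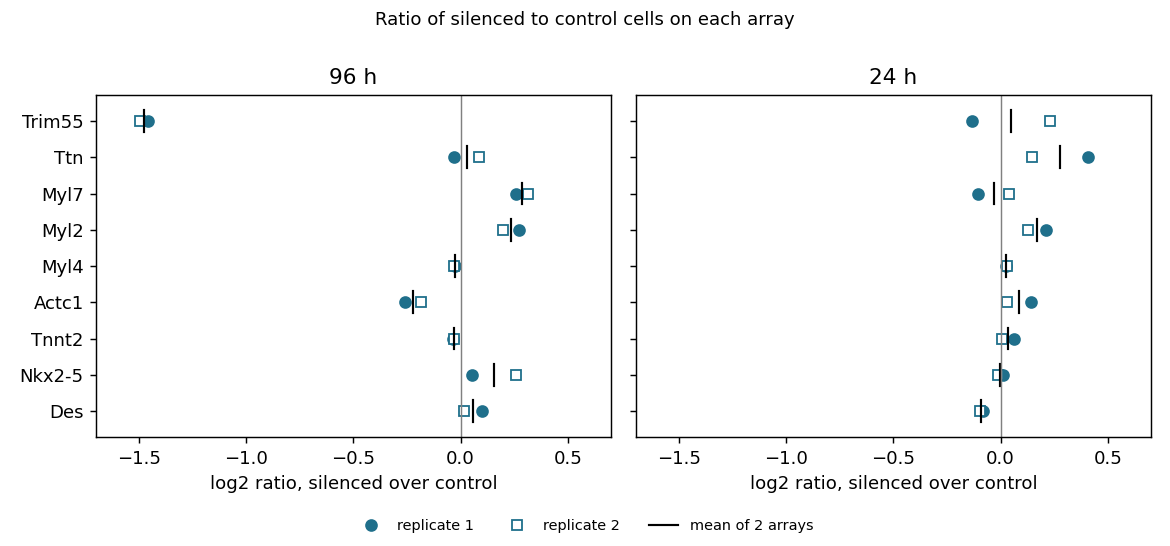
Log2 ratio of silenced to control cells on each array at 96 h (left) and 24 h (right), 1 row per gene; filled circles are replicate 1, open squares replicate 2 and short lines the mean of the 2 arrays. At 96 h Trim55 lay at −1.46 and −1.50 while the other 8 genes lay between −0.26 and 0.32.

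Among the genes whose levels over the 8 channels were most like those of Trim55 were Pdpk1, Chst1, Fgf5 and Slc39a8, of 12969 genes compared. Likeness was the root mean square difference of log2 levels after centring each gene on its own mean, 0.29 for Pdpk1 and 0.43 for Slc39a8. Their 96 h ratios of silenced to control cells were −1.33 for Pdpk1, −0.76 for Chst1, −0.69 for Fgf5 and −1.17 for Slc39a8. Other probes of Pdpk1 gave 0.08 and 0.07, so its likeness to Trim55 rests on 1 of 3 probes, and another probe of Slc39a8 gave −0.79.

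The genes most like Ttn were Fetub, Cabs1, Egr1, Accsl and Irak3, with differences of 0.08 for Fetub to 0.20 for Irak3. Their levels in control cells at 96 h differed from those at 24 h by −2.85 for Fetub, −2.71 for Cabs1, −2.94 for Egr1, −2.68 for Accsl and −2.54 for Irak3, for which 2 other probes gave −1.54 and −0.98. The 8 channels share 4 arrays, and these likenesses are a description of the channels. The 96 h ratios of the genes like Trim55, and the falls of those like Ttn, follow in part from the way these genes were picked.

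Of 149 other genes in 8 lists drawn up for striated muscle, 135 were on the array and 108 were measured. Not all of them are confined to that tissue, Nes for example being found in neural progenitors too. At 96 h 11 of the 108 rose and 12 fell in silenced cells, beside 6.61% higher and 6.8% lower of all genes tested, with a median log2 ratio of −0.02 (0.00 over all genes tested). On the 2 arrays each of the 23 moved in 1 direction. The difference between the 96 h and the 24 h effect passed for 14 of the 108, 6 higher and 8 lower, beside 6.91% of all genes tested (2.83% higher and 4.09% lower). At 24 h none of the 108 passed, and 5 had an unadjusted p under 0.05 in limma, beside 1667 of all 21751 genes tested. Without the replicate block 3 of the 108 passed at 96 h, all lower: Acta1, Nes and Pdlim3. With a 96 h array left out only Nes passed, 1 of 108 in either case, also within the first slide, which is the fit without 96 h replicate 2.

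In the thick filament list 2 of 11 measured genes rose at 96 h and none fell. The myosin-binding protein genes Mybpc3 (0.35, SE 0.06, limma adjusted p = 0.000131), of the heart, and Mybpc2 (0.24), of fast skeletal muscle, were the 2 that rose. In the thin filament list 4 of 13 fell and 1 rose. Skeletal alpha-actin, Acta1, fell by 0.88 on the log2 scale, with ratios of −0.87 and −0.89 on the 2 arrays (limma adjusted p = 7.13e-13). Its level was 6.72 and 6.56 in silenced cells of 96 h, and 7.58 and 7.45 in control cells of 96 h. The tropomyosins Tpm2 (−0.34, other probe −0.43) and Tpm1 (−0.28, other probe −0.45) fell as well, and the slow skeletal troponin T gene Tnnt1 rose by 0.32.

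Among Z-disc genes and titin partners 3 of 22 fell and 2 rose. Pdlim3, a PDZ-LIM protein that binds alpha-actinin at the Z-disc, fell by 0.77 (limma adjusted p = 2.86e-11), with a level of 7.56 and 7.44 in silenced cells of 96 h against 8.35 and 8.20 in control cells of 96 h. Its other probe gave −0.79. Filamin C, Flnc, fell by 0.40 (other probes −0.18 and −0.14) and the LIM protein gene Fhl2 by 0.28, whereas Capn3, a muscle calpain that binds titin, rose by 0.26.

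None of the 5 measured genes in the list of MuRF proteins and muscle ubiquitin ligases passed at 96 h. Trim54 (MuRF3), a close relative of Trim55, had a level at 96 h of 9.15 and 8.98 in silenced cells, and 9.23 and 9.24 in control cells, with a ratio of −0.17 (limma adjusted p = 0.0656). Trim63 (MuRF1), the ligase of muscle atrophy, had a ratio of 0.09 (limma adjusted p = 0.379). In control cells over time 3 of the 5 rose and none fell, beside 19.4% higher and 16.8% lower of all genes tested. Trim54 rose by 1.05 on the log2 scale (limma adjusted p = 0.000192), Trim63 by 0.73 and the autophagy receptor gene Sqstm1 by 0.57.

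Of 12 genes of intermediate filaments and membrane linkage, Nes and Vim fell at 96 h, by 1.02 and by 0.52, and plakoglobin, Jup, rose by 0.21. Nes encodes nestin, found in neural and muscle progenitors, and had a level of 8.40 and 8.46 in silenced cells of 96 h against 9.50 and 9.40 in control cells of 96 h (limma adjusted p = 1.83e-14). Of 15 genes of calcium handling and natriuretic peptides 4 rose and 2 fell. The cardiac gap junction gene Gja1 fell by 0.58 and the junctophilin Jph1 by 0.20, whereas the calcium channel subunit Cacna1s rose by 0.30 and the cardiac ryanodine receptor Ryr2 by 0.25 (other probe −0.06). Among 22 cardiac transcription factors Tbx3 rose by 0.36 and Hopx fell by 0.20, and of 8 skeletal myogenic genes none passed.

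In control cells over time 36 of the 108 changed, 20 higher and 16 lower at 96 h, beside 36.2% of all genes tested, with a median of −0.04 (0.00 over all genes tested). The largest rises were Pdlim3 (2.13, other probe 2.03), which at 24 h was above background on 1 of 2 control arrays, Cacna1s (1.88) and Tpm1 (1.84, other probe 1.46). The largest falls were Hopx (−3.05), Vim (−2.60) and Mybpc3 (−2.02). The calsequestrin gene Casq1 was at least 1.62-fold lower at 96 h. The 96 h ratios and this time course share the control channels of 96 h.

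**Figure D4:**
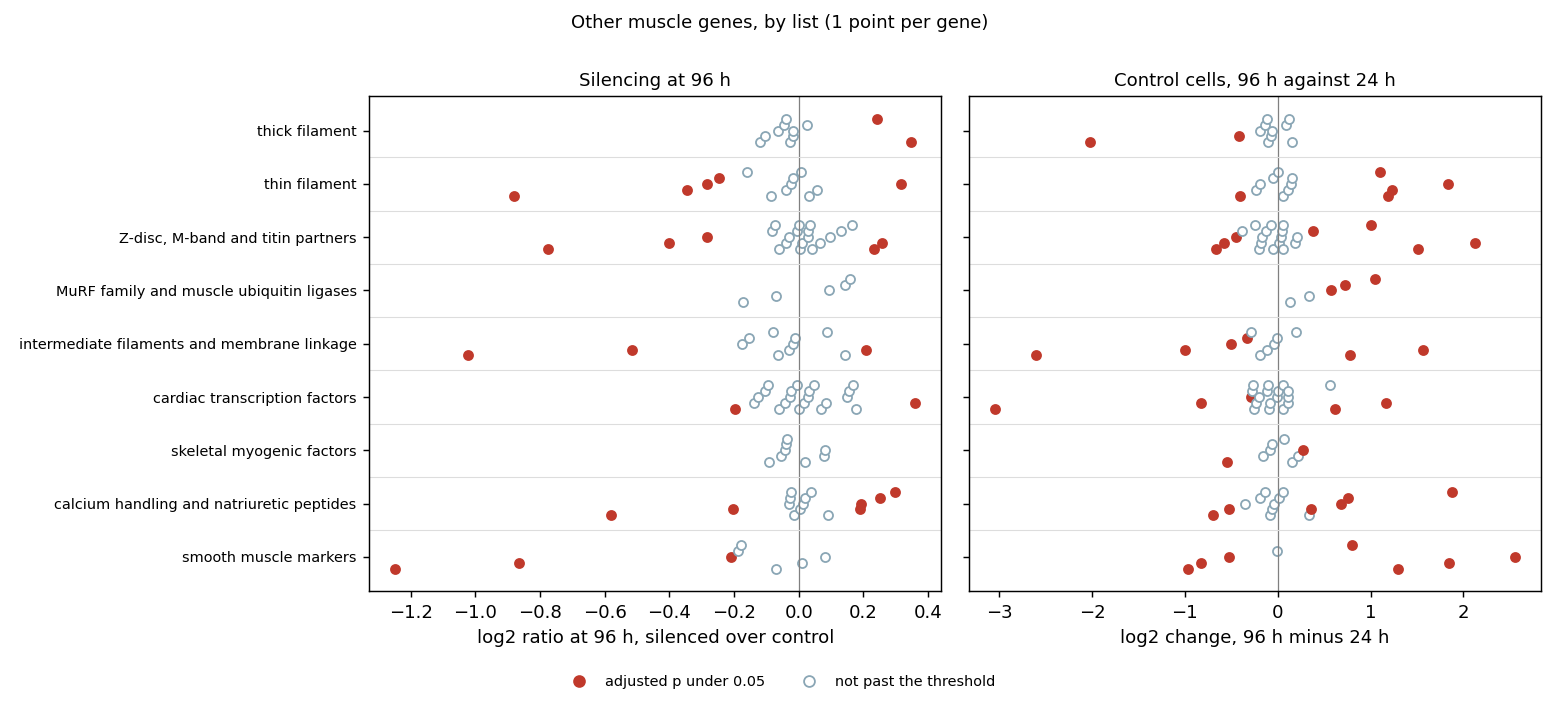
Log2 ratio of silenced to control cells at 96 h (left) and log2 change in control cells at 96 h against 24 h (right), 1 point per measured gene in each of 8 striated muscle lists and the smooth muscle list; filled points had an adjusted p under 0.05. Calls lay on both sides of 0 in most lists, and the 3 smooth muscle calls at 96 h were all lower in silenced cells; both panels use the control channels of 96 h.

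Markers of other cells moved at 96 h too, and their part in the muscle values was not tested. Of all genes tested 6.61% were higher and 6.8% lower at 96 h, and the marker lists are small. The summed levels below add linear intensities, so the brightest genes of a list weigh most. Of the 14 marker calls given here, 3 passed without the replicate block or with a 24 h array left out (Tagln, Cnn1 and Cubn), and 2 with a 96 h array left out (Tagln with Cubn or with Cnn1). With the authors' ratios none of the 14 passed limma's test. Of 8 measured smooth muscle markers 3 fell and none rose: Tagln (−1.25, other probe −1.38), Cnn1 (−0.86) and Cald1 (−0.21, other probe −0.11), with a median of −0.18. All 8 were above background on both arrays of every group, and their summed level at 96 h was 7938 to 8166 in silenced cells and 10560 to 10982 in control cells. Of 6 measured fibroblast markers 3 fell, Dcn (−0.44), Col1a2 (−0.35) and Thy1 (−0.32, other probe −0.08), and Pdgfrb rose by 0.41, with summed levels of 1736 to 1801 in silenced and 1935 to 2109 in control cells. Col3a1 and Lum were not above background on both arrays of any group.

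Of 4 measured endothelial markers Pecam1 (0.27) and Tek (0.25) rose, with summed levels at 96 h of 655 to 656 in silenced and 565 to 574 in control cells. Of 3 measured visceral endoderm markers Cubn (1.05) and Amn (0.29) rose, with summed levels of 624 to 652 in silenced and 411 to 428 in control cells, while Ttr and Apoa1 were not above background on both arrays of any group. None of 4 neural markers passed (summed levels 1583 to 1710 in silenced and 1528 to 1560 in control cells). Among the 4 pluripotent cell markers Sox2 (0.36) and Zfp42 (0.30, other probe 0.23) rose and Pou5f1 gave −1.05, which was 0.01 without 96 h replicate 2. Their summed levels were 32614 to 42564 in silenced and 36470 to 45468 in control cells of 96 h. At 24 h Pou5f1 alone among these markers passed (0.68), and it gave −0.21 without 24 h replicate 1. In control cells over time 7 of the 8 smooth muscle markers changed, 4 higher and 3 lower at 96 h. Of the fibroblast markers 4 of 6 rose, as did all 3 visceral endoderm markers. Of the endothelial markers 2 of 4 fell, as did 1 of 4 pluripotent cell markers, and none of 4 neural markers passed. These lists are small, and of all genes tested 36.2% changed over time (19.4% higher and 16.8% lower).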

How the data were processed

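RNA of silenced and control D3 cells was hybridised to 4 Agilent 2-colour arrays, from 200 ng of total RNA each per the labels. Spot values were extracted by the authors in Feature Extraction, release 10.7.1.1 per the file headers. The deposited scanner files hold median spot and local background signals as intensity, and log10 ratios of Cy5 over Cy3. The authors' deposited series table holds the same log10 ratios turned to silenced over control cells, equal within 4.967e-06.

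Intensities were read with R 4.3.3 and limma 3.58.1, corrected with normexp (offset 50) and normalized by loess within arrays, with control spots (1639 of 45018) at weight 0 and 1 non-uniform spot left out. Mean signals are not in the files, so median signals were used. Spots of a probe were averaged. Probes had to be well above background on both arrays of at least 1 group (28079 of 41174), and the brightest probe of each gene was tested. RefSeq accessions named 24375 probes. Ratios were fitted with a mean per time and a dye term, which equals the replicate number and so is the replicate block (1 residual and 32.9 prior degrees of freedom). Control cells at 96 h and 24 h were compared on single channels after Aquantile normalization with lmscFit (intraspot correlation 0.896). Tests were two-sided, and genes passed at a Benjamini-Hochberg adjusted p under 0.05 over all 21751.

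The 10 genes, the 8 muscle lists and the 6 marker lists were chosen with earlier results of these data known. Named list genes were up to 4 past the threshold with the largest change per list and comparison, or up to 2 with the smallest p, and for Trim55 and Ttn the 5 genes most like each, of which some results are not reported here. The procedures were tested on simulated data, where the time course fit found most of the larger changes set and missed most of the smaller ones. The spread for that fit was set by hand, and even the smaller changes set exceeded some called here. The simulation is thus no measure of what the fit finds in these data. Alternatives were another offset, no filter, every probe, median centring, the authors' ratios, no replicate block, other normalization and terms for the time course, and each array left out.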

Additional observations from a re-analysis of the deposited data

Results flagged for a closer look

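On both arrays of 96 h Myl4, Actc1, Tnnt2 and Des had a ratio of silenced to control cells of one sign, and on both arrays of 24 h the other. For Myl4 and Tnnt2 the mean ratios lay close to 0, at −0.03 for both at 96 h and at 0.03 and 0.04 at 24 h. The 96 h ratio minus the 24 h ratio was −0.06 for Myl4, −0.31 for Actc1, −0.07 for Tnnt2 and 0.15 for Des on the log2 scale. These differences were not tested. The share of all genes with such signs was not counted, so the number of such genes is not a result. The 96 h ratios are those that chose the genes. With the authors' ratios the mean of Myl4 was positive at both times (0.07 at 96 h and 0.10 at 24 h). That of Tnnt2 then had the opposite signs (0.04 at 96 h and −0.17 at 24 h), and Tnnt2 was above background on no array of 24 h.

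For 13 of the other named genes of the striated muscle lists limma's test of the difference between the times passed. These 13 and the markers below had all passed at 96 h, a ground for naming them. Their passing here follows in part from that choice. Of all 108 measured genes of the lists 14 passed, beside 6.91% of all genes tested. The 96 h effect minus the 24 h effect was negative for Nes (−1.02), Acta1 (−0.83), Pdlim3 (−0.80), Vim (−0.60), Gja1 (−0.54), Flnc (−0.44), Tpm2 (−0.42) and Tpm1 (−0.39), and positive for Tnnt1 (0.38), Tbx3 (0.36), Cacna1s (0.31), Jup (0.29) and Mybpc2 (0.28). The same test passed for the smooth muscle markers Tagln (−1.25), Cnn1 (−0.83) and Cald1 (−0.29), and for the fibroblast markers Dcn (−0.44), Col1a2 (−0.40) and Pdgfrb (0.38). It also passed for Cubn (1.1) and Amn (0.35) of the visceral endoderm and for Pou5f1 (−1.74) and Sox2 (0.29) of pluripotent cells. Without the replicate block no gene passed this test, and 1297 had an unadjusted p under 0.05 in limma.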

How the results depend on the processing

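The calls of Trim55, Ttn, Myl2 and Des in control cells over time held under all alternatives that kept the 4 arrays. Some of these call more genes than the main fit, and those with no filter or every probe keep its estimates. Des came nearest the threshold (limma adjusted p = 0.0451 with an offset of 16). Myl7, Actc1 and Tnnt2, not called, passed without a dye term, and Tnnt2 also with an offset of 16 (0.51). The 96 h ratio of Trim55 stayed between −1.50 and −1.42. Several values near 0 changed sign, and so did the called ratios of Pou5f1 at both times. With each array of 24 h left out the 24 h ratio of Trim55 ranged from −0.134 to 0.231, of Myl7 from −0.104 to 0.0394, of Nkx2-5 from −0.0120 to 0.0102 and of Pou5f1 from −0.209 to 1.58. The 24 h ratio of Tnnt2 was −0.17 and of Nkx2-5 0.10 with the authors' ratios, and of Nkx2-5 0.00425 with median centring. Over time in control cells Myl4 gave −0.00631 with the slide as a term, −0.00794 to 0.157 with 1 array left out, and Nkx2-5 −0.0340 to 0.137. Pou5f1 at 96 h gave −2.11 to 0.00654 with 1 array left out.

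Counts of silencing calls depended on the settings, and the cause was not tested. At 24 h the 81 calls became 0 with an offset of 16 (1615 at an unadjusted p under 0.05 in limma), 42 with median centring, 0 with the authors' ratios (1571 unadjusted), 0 without the replicate block (216 unadjusted) and 0 with 1 array left out (193 to 296 unadjusted). At 96 h the 2916 calls became 1016 when the offset was 16, 1798 (1126 higher and 672 lower) under median centring, 0 with the authors' ratios (3846 unadjusted), 106 without the replicate block (15 higher and 91 lower) and 29 to 114 with 1 array left out. The 23 calls among striated muscle list genes became 10, 16, 0 (30 unadjusted), 3 and 1 to 4 under the same settings in that order. The 1504 differences between times became 271, 737, 0 (2937 unadjusted), 0 (1297 unadjusted) and 0 (844 to 1084 unadjusted). The time course counts stayed within 1.5 times of 7882 genes and of 36 list genes, but the larger moves were upward. More genes were called without a dye term (9795), with the slide as a term (9449) and with 1 array left out. A call that holds in those more lenient fits is little support for it. Replicate numbers coincide with dye orientation, and deviations of replicate 1 from the time means correlated at 0.70 between the times across genes, with 2 pairs. Fits with 1 array left out have no dye term for the ratios and used the intraspot correlation of the full fit.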
